A study of Mus musculus with 12 samples.

Results

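The genes described here are 49 genes of the transforming growth factor beta (TGF-beta), bone morphogenetic protein (BMP) and activin pathways, out of 47729 genes in the counted annotation. They were chosen by name for their role as ligands, receptors, latent binding proteins, secreted antagonists, Smads, Id genes or a matrix target, and all 49 were found in the count tables. TGF-beta family ligands are secreted dimers that bring together type II and type I receptor kinases, which phosphorylate receptor-regulated Smads. TGF-betas and activins act through Smad2 and Smad3, BMPs through Smad1, Smad5 and Smad9, and both branches share Smad4. Mature TGF-beta is held latent by its propeptide and by latent binding proteins in the matrix, BMPs are held back by secreted antagonists, and in the uterus the family is known for roles in decidualization and tissue repair.

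RNA was sequenced from mesenchymal cells that were freed by enzyme digestion of the uterus and sorted by flow cytometry, with 6 libraries in each of 2 groups. All animals were healthy, cycling females of the Pdgfrb-BAC-eGFP strain, in which a bacterial artificial chromosome drives green fluorescent protein (GFP) from Pdgfrb sequences, and no age is stated for them. The GFPtotal group (termed Naive by the study) holds all GFP-positive cells, which are GFP-high perivascular cells mixed with GFP-low stromal fibroblasts in proportions that are not given. The GFPlow group (termed Stromal, with the sorted population labelled GFPdim) holds the GFP-low fibroblasts, and the study set GFPtotal against GFPlow to infer the profile of the GFP-high cells. The series describes 12 mice for 12 libraries but ties no library to a mouse, so the p-values speak only of the spread among libraries.

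The libraries held between 12631266 and 14950639 counted fragments in GFPtotal and between 14339804 and 18425596 in GFPlow. Summed pericyte markers were between 865 and 1521 CPM (counts scaled by library depth) in GFPtotal, against 4.12 to 16.7 CPM in GFPlow. Of the tested genes 6 of 6 were higher, so GFPtotal carried markers of the perivascular cells it is described to hold. By the same test, 0 of 10 fibroblast markers were higher in GFPlow. The summed fibroblast markers lay between 23806 and 40360 CPM in GFPtotal, against 15638 to 23589 CPM in GFPlow (2 of 10 higher), and smooth muscle markers were 454 to 754 CPM and 299 to 412 CPM in the same order (4 of 8 tested genes higher). Summed endothelial markers were low in both groups, 35.4 to 65.1 CPM in GFPtotal, against 39.7 to 60.3 CPM in GFPlow, with Cldn5 at 0 counts and Tie1 and Egfl7 under 1 CPM in every library. Cdh5 was lower in GFPtotal (1 of 5 tested genes passed), Kdr had a log2 fold change of -0.89, and Emcn (1.71, adjusted p = 0.0562), Flt1 (1.39) and Tek (1.04) had positive values that did not pass. Leukocyte markers (4.94 to 18.7 CPM in GFPtotal, 5.70 to 16.9 CPM in GFPlow), epithelial markers (5.61 to 20.3 and 11.3 to 19.6 CPM) and Schwann cell markers (0.572 to 4.06 and 0.364 to 3.19 CPM) were also low, and 0 of 2, 0 of 4 and 0 of 1 tested genes of these lists passed the test. Mesothelial markers summed to 43.5 to 79.7 CPM in GFPtotal, against 73.9 to 102 CPM in GFPlow, of which Wt1 gave nearly all, with Msln and Upk3b at 0 counts. Immediate early and stress genes summed to 1656 to 2430 CPM in GFPtotal, against 834 to 1813 CPM in GFPlow, with 3 of 13 higher.

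Some libraries stood apart. GFPtotal 3, 4 and 5 scored 102 to 107 on the leading principal component, which carried 34.0% of variance, while GFPtotal 1, 2 and 6 lay at -3.82 to 6.66 and the GFPlow libraries at -64.6 to -31.1. Summed fibroblast markers were 23806 to 27737 CPM in GFPtotal 3, 4 and 5, against 37911 to 40360 CPM in GFPtotal 1, 2 and 6. In the same order, smooth muscle markers were 621 to 754 and 454 to 493 CPM. Pericyte markers were 1246 to 1521 and 865 to 1176 CPM. The part of these marker levels in the split was not tested. The header of the file labelled GFPlow 6 names its alignment N8, with the letter the study uses for GFPtotal, whereas the other 11 headers match their labels. The pericyte marker sum of that library was 16.7 CPM, beside 4.12 to 15.6 CPM in the other GFPlow libraries. Results are therefore given with and without these libraries where they matter.

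Of the 3 genes that passed the test below, Bmp6 and Id4 both lie on chromosome 13, and the 250 bases before the start of each are shown for their context, from RefSeq on GRCm38.p6. Bmp6 has its stretch at chr13:38345466-38345715 on the plus strand and Id4 at chr13:48260866-48261115 on the plus strand, upstream of the start in the count annotation. Capitals mark GGCGCC, a GC-rich motif bound by BMP-branch Smads, and CAGAC, the core bound by Smad3 and Smad4, each on either strand.
Bmp6: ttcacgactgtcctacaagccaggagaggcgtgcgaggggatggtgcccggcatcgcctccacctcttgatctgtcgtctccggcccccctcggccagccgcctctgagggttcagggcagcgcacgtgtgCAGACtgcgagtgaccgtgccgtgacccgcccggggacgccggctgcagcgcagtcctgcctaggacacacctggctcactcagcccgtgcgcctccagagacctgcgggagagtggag
Id4: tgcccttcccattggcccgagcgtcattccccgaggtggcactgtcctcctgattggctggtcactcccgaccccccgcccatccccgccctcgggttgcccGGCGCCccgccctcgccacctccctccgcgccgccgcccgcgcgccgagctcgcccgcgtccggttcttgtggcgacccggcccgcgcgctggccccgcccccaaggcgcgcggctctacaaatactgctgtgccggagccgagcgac
The Bmp6 stretch has 1 CAGAC and no GGCGCC, and the Id4 stretch has 1 GGCGCC and no CAGAC. Of 32851 promoters of that length in the table, 9.59% hold GGCGCC and 42.2% hold CAGAC. RefSeq promoters were found for 35 of the 49 genes, 43 promoters in all, of which 12 (27.9%) hold GGCGCC and 19 (44.2%) hold CAGAC. The E-box, CANNTG, is in 18 of the 43 (41.9%) and in 66.2% of all promoters. The Bmp6 stretch is 68.8% G and C and the Id4 stretch 75.6%, beside a median of 52.4% over all promoters. Some genes have several promoters, and the part of base composition in these shares was not tested. A match is a description of letters and not a site.

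The comparison asked which of the pathway genes differed between the sorted populations. Most did not pass the test. Of the 49 genes, 35 had enough counts to be tested, and 3 of these passed an adjusted p of 0.05 in edgeR's quasi-likelihood test (Benjamini-Hochberg over 14523 genes): Bmp6 and Id4 were higher in GFPtotal and Bmp7 was lower. Over all tested genes 5.41% passed (4.55% higher, 0.854% lower), so 3 of 35 is near the background. When libraries were scaled by their totals alone, the split over all genes moved: 84.2% of the genes called were higher with trimmed mean scaling and 66.3% with total library size. The median log2 fold change (GFPtotal minus GFPlow, here and throughout) of the 35 tested pathway genes was 0.12, ranging from -2.02 to 3.84, beside -0.000599 over all tested genes. Of the 35, 28 lay within 1 log2 unit of 0, and 12 had an unadjusted p below 0.05, a threshold that 19.9% of all tested genes passed. In a mixed population, fewer cells of a type and less RNA per cell cannot be told apart.

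**Figure D1:**
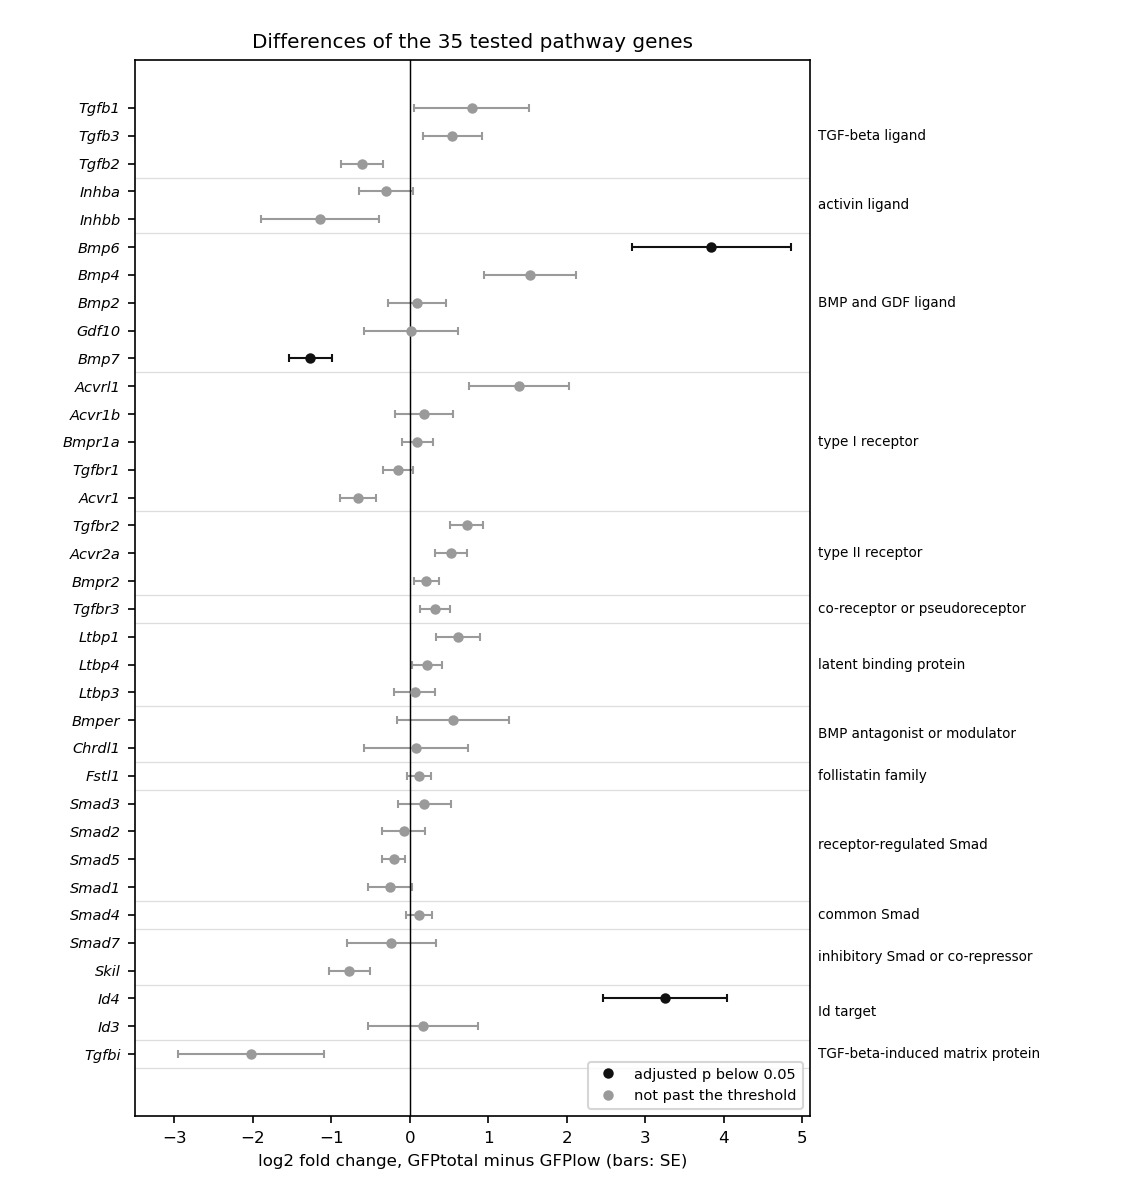
Log2 fold change (x axis, GFPtotal minus GFPlow, bars SE) of the 35 tested pathway genes, in rows by role. The 3 genes past the threshold (black) are Bmp6 at 3.84, Id4 at 3.25 and Bmp7 at -1.26, and 28 of the 35 lie within 1 of 0.

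Without GFPtotal 3, 4 and 5, 0 of 37 tested pathway genes passed the threshold (edgeR), where 1.88% of 15703 genes did. An unadjusted p below 0.05 was reached by 11 of the 37, and the share of all genes at that p was not taken in this fit. Without GFPlow 6, Bmp7 and Id4 passed and Bmp6 did not, where 4.09% of all genes passed. The genes that passed as higher in GFPtotal included 6 of 6 tested pericyte, 4 of 8 smooth muscle, 2 of 10 fibroblast and 3 of 13 immediate early and stress markers, and the part of these cell types and of stress in the differences below was not tested.

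Among the BMP and GDF ligands, Bmp6 was higher and Bmp7 lower in GFPtotal. Bmp6, a BMP best known as the signal by which liver endothelium sets hepcidin, lies on chromosome 13 at 38345716 to 38499728 on the plus strand of GRCm38 (ENSMUSG00000039004). It stood at 1.86 CPM in the lowest, 3.28 in the median and 8.35 in the highest GFPtotal library, against 0, 0.0271 and 1.30 CPM in GFPlow. Every GFPtotal library was above every GFPlow library, and GFPtotal 4 stood highest. It was the only 1 of the 35 tested genes whose groups did not overlap, a separation seen in 3.66% of all tested genes (2.86% with GFPtotal above, 0.806% with GFPlow above). GFPlow 3, 4 and 5 had 0 counts of Bmp6, which allows up to 0.177 to 0.218 CPM in each (3 counts), and 23 of the 26 counts in GFPlow came from GFPlow 2.

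The mean level of Bmp6 was 3.72 ± 2.38 CPM in GFPtotal, against 0.247 ± 0.518 CPM in GFPlow (SD, n = 6), a log2 fold change of 3.84 (SE 1.02, edgeR adjusted p = 0.0343). It passed the filter on low counts through the GFPtotal libraries alone. Its call was lost without any 1 of GFPtotal 3, 4 or 5 or GFPlow 1, 3, 4, 5 or 6 (edgeR adjusted p between 0.0509 and 0.0912), and without GFPtotal 3, 4 and 5 together (3.17, adjusted p = 0.30). Without GFPlow 2 the difference was 6.36 (adjusted p = 0.00101), and under a replicate block it was 5.32.

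Bmp7, a BMP that in the mouse uterus has been tied to implantation and decidualization, had the highest mean level per exon length of the 6 BMP and GDF ligands in GFPlow. Bmp7 (ENSMUSG00000008999) lies on chromosome 2 at 172868012 to 172940321 on the minus strand. Its lowest, median and highest levels were 17.9, 21.8 and 46.2 CPM in GFPtotal, against 38.1, 62.6 and 94.5 CPM in GFPlow. The groups overlapped through 1 library on each side, GFPtotal 1 at 46.2 CPM and GFPlow 5 at 38.1 CPM. Means were 26.7 ± 10.6 CPM in GFPtotal, against 64.2 ± 22.9 CPM in GFPlow (SD, n = 6), a log2 fold change of -1.26 (SE 0.27, edgeR adjusted p = 0.0109). The call held in 20 of 21 alternative analyses, including each of the 12 that left out 1 library, and was lost without GFPtotal 3, 4 and 5 (-0.97, adjusted p = 0.157).

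**Figure D2:**
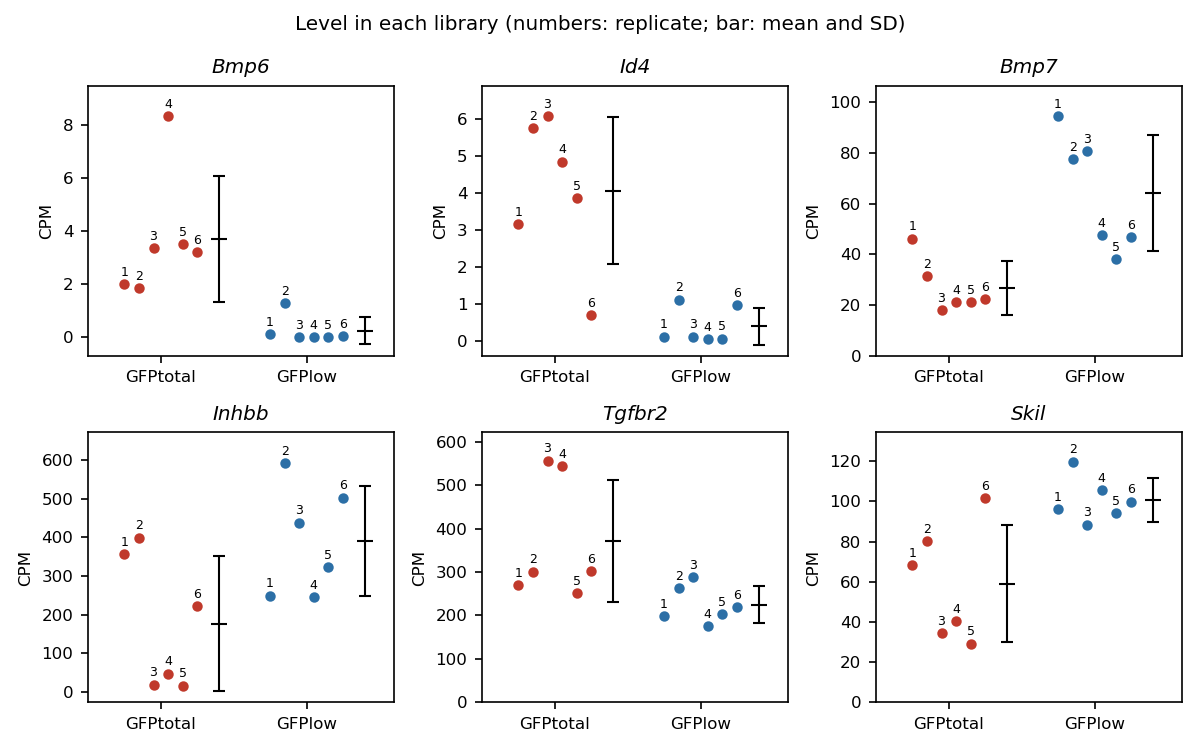
Level in CPM (y axis) of 6 pathway genes in each library, GFPtotal left of GFPlow, numbered by replicate, with the mean and SD as bars. Bmp6 is above 1.8 CPM in each GFPtotal library and at most 1.30 CPM in GFPlow, Bmp7 overlaps through 1 library on each side, and Inhbb is lowest in GFPtotal 3, 4 and 5.

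The other BMP and GDF ligands did not pass the test. Bmp4, whose ligand is a classical BMP of stromal cells, stood at 0.541, 4.16 and 10.4 CPM in GFPtotal (lowest, median, highest) and at 0.767, 1.71 and 2.71 CPM in GFPlow. Its log2 fold change was 1.53 (SE 0.59, edgeR adjusted p = 0.149) with all libraries and 0.29 without GFPtotal 3, 4 and 5. Bmp2, which is required for decidualization in mice, gave 0.10 (adjusted p = 0.921), with means of 13.4 ± 4.35 CPM in GFPtotal, against 12.5 ± 6.27 CPM in GFPlow. Gdf10, also called BMP3b, gave 0.01 (adjusted p = 0.994) and varied widely, from 4.62 to 58.5 CPM in GFPtotal, against 7.85 to 48.3 CPM in GFPlow. Its 3 highest GFPtotal libraries were GFPtotal 3, 4 and 5, and without them its value was -1.61 (adjusted p = 0.164). Bmp5 had 8 counts over all 12 libraries and was not tested, and 46.7% of its exonic bases are antisense to Gm26903, where reads cannot be assigned.

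Counted per length of exon, the shares of 5 of the 6 BMP and GDF ligands overlapped between the groups. Bmp7 held 32.4 ± 16.8% of their summed level in GFPtotal and 57.2 ± 6.2% in GFPlow (SD, n = 6). GFPtotal 1 and 2, at 56.1% and 48.3%, lay within the GFPlow range of 47.3% to 63.5%, and GFPtotal 3, 4 and 5 were at 22.1%, 18.6% and 15.4%. The share of Gdf10 was 32.3 ± 21.1% in GFPtotal and 27.0 ± 7.8% in GFPlow, and that of Bmp2 was 18.7 ± 9.4% and 12.5 ± 5.3% in the same order. The share of Bmp6 was 4.1% to 12.2% in GFPtotal and 0% to 1.5% in GFPlow. It was the 1 share among those plotted that did not overlap between groups. These shares were not tested, and each rests on the levels given above.

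**Figure D3:**
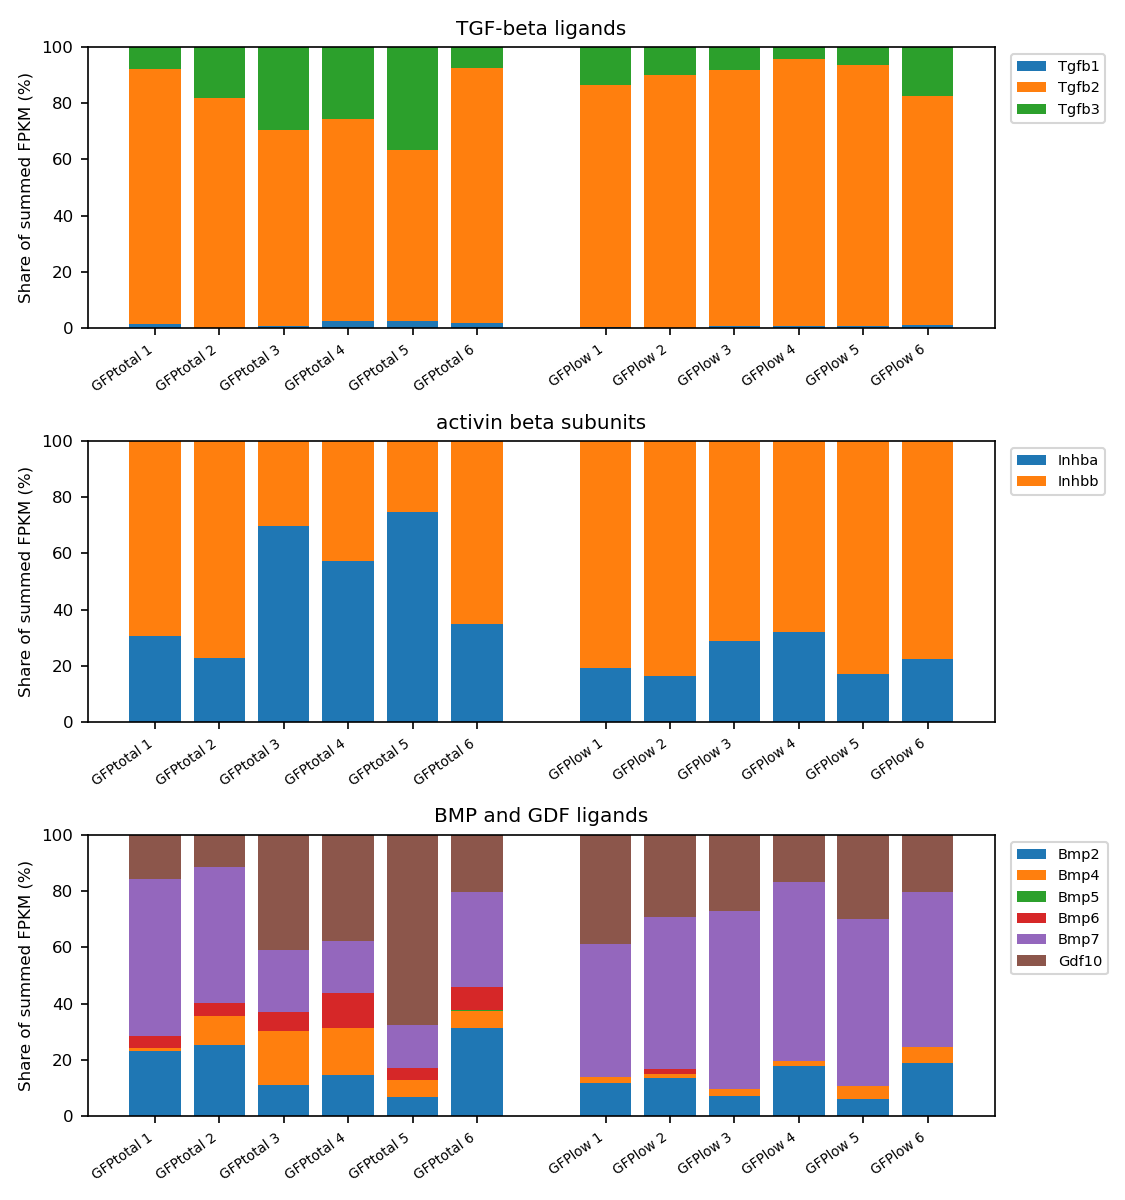
Share (y axis, percent of the family's summed FPKM) of each ligand in each library, GFPtotal left of GFPlow, for TGF-beta ligands, activin beta subunits and BMP and GDF ligands. Bmp6 takes 4.1% to 12.2% in GFPtotal and at most 1.5% in GFPlow, Tgfb2 takes most of the TGF-beta ligand level in every library, and Inhba exceeds Inhbb in GFPtotal 3, 4 and 5 only.

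The 3 TGF-beta ligand genes did not pass the test. Tgfb2 was the most abundant of them, with 41.7, 76.4 and 127 CPM in GFPtotal (lowest, median, highest) and 74.3, 129 and 162 CPM in GFPlow. Its 3 lowest libraries of all 12 were GFPtotal 3, 4 and 5, and the groups overlapped. The log2 fold change was -0.61 (SE 0.27, edgeR adjusted p = 0.210), or -0.17 without those 3 libraries. Tgfb3 averaged 11.0 ± 5.02 CPM in GFPtotal, against 7.56 ± 3.16 CPM in GFPlow (0.54, adjusted p = 0.456). Tgfb1, the isoform most studied in wound repair, had only 100 counts in GFPtotal and 68 in GFPlow, with levels of 0.0810 to 1.80 CPM in GFPtotal, against 0.170 to 1.19 CPM in GFPlow (0.79, SE 0.74, adjusted p = 0.614).

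Per exon length, Tgfb2 held 77.6 ± 12.1% of the summed level of the 3 TGF-beta ligand genes in GFPtotal and 89.4 ± 5.0% in GFPlow (SD, n = 6). Tgfb1 held 1.5 ± 1.0% in GFPtotal and 0.6 ± 0.3% in GFPlow. The TGF-beta RNA of both sorted populations was thus mostly Tgfb2, with Tgfb3 at 20.9 ± 11.8% in GFPtotal and 10 ± 4.9% in GFPlow.

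The activin subunit genes were among the most abundant of the list, and neither passed the test. Inhbb, which encodes the beta B subunit of activin B, stood at 16.6, 134 and 399.8 CPM in GFPtotal (lowest, median, highest) and at 245, 380.4 and 592 CPM in GFPlow. GFPtotal 3, 4 and 5 had 18.9, 47.3 and 16.6 CPM, while GFPtotal 1 and 2 lay within the range of GFPlow and GFPtotal 6, at 222 CPM, just below it. The log2 fold change was -1.15 (SE 0.75, edgeR adjusted p = 0.449) and, without those 3 libraries, -0.29 (adjusted p = 0.747). Inhba, which encodes the beta A subunit of activin A, averaged 42.7 ± 21.5 CPM in GFPtotal, against 52.6 ± 21.1 CPM in GFPlow (-0.30, adjusted p = 0.685). Per exon length, Inhbb held 51.6 ± 21.9% of their sum in GFPtotal, with a range of 25.2% to 77.4%, and 77.4 ± 6.6% in GFPlow.

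None of the 8 tested type I and type II receptor genes passed the test, and 4 had an unadjusted p below 0.05 (edgeR). Over all tested genes, 19.9% had an unadjusted p that low. Tgfbr2, the type II receptor for TGF-beta, came nearest, with 251, 301 and 556 CPM in GFPtotal (lowest, median, highest) and 176, 211 and 288 CPM in GFPlow. GFPtotal 3 and 4, at 556 and 544 CPM, were above all other libraries, and the ranges of the groups overlapped. The log2 fold change was 0.72 (SE 0.21, edgeR adjusted p = 0.0588) and 0.35 (adjusted p = 0.383) without GFPtotal 3, 4 and 5. Tgfbr2 passed in DESeq2 (adjusted p = 0.0438) and in 4 other of the 21 alternative analyses. Acvrl1, which encodes the type I receptor ALK1 best known from endothelium, stood at 3.97, 5.93 and 28.7 CPM in GFPtotal and at 0.253, 3.89 and 7.28 CPM in GFPlow (1.39, SE 0.64, adjusted p = 0.234). GFPtotal 3 and 4, at 14.3 and 28.7 CPM, carried most of it, and without GFPtotal 3, 4 and 5 its value was 0.32. Cdh5, Kdr, Emcn, Tek and Flt1, endothelial markers given above, had values of both signs, and their part in this value was not tested.

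Bmpr1a, the BMP type I receptor ALK3, was the most abundant type I receptor gene, and its level was 247 ± 68.0 CPM in GFPtotal, against 231 ± 57.2 CPM in GFPlow (0.10, edgeR adjusted p = 0.844). Its sign turned with total library size (-0.01) and with a GC correction (-0.02). Acvr1, the type I receptor ALK2, had 16.1 ± 5.14 CPM in GFPtotal, against 25.4 ± 4.14 CPM in GFPlow (-0.66, SE 0.23, adjusted p = 0.112). GFPtotal 6, at 25.6 CPM, lay inside the GFPlow range, and the other 5 GFPtotal libraries lay below it. Acvr2a, an activin type II receptor, gave 0.53 (adjusted p = 0.148), and 7.84% of its exonic bases are antisense to Orc4, whose reads cannot be told apart there because counting did not use strand. Tgfbr1 (-0.15), Acvr1b (0.18) and Bmpr2 (0.21) had adjusted p of 0.733, 0.841 and 0.522 in edgeR.

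The shares of the receptor genes overlapped between groups. Per exon length, Bmpr1a held 63.4 ± 6.3% of the summed type I receptor level in GFPtotal and 60.6 ± 5.6% in GFPlow. Among type II receptors Tgfbr2 held 49.8 ± 9.9% in GFPtotal and 43.5 ± 7.2% in GFPlow, and Bmpr2 39.0 ± 9.7% and 46.0 ± 6.5% in the same order (SD, n = 6). Bmpr1b, a further BMP type I receptor, was near absent from the counts, with 6 in GFPtotal and 101 in GFPlow, and Acvr2b had 35 and 13 counts in the same order. Tgfbr3, the co-receptor betaglycan that binds TGF-beta and inhibin, ranged from 105 to 209 CPM in GFPtotal, against 81.4 to 154 CPM in GFPlow (0.32, SE 0.19, adjusted p = 0.382). Bambi, a pseudoreceptor that dampens signalling, had 60 counts in GFPtotal and 34 in GFPlow.

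**Figure D4:**
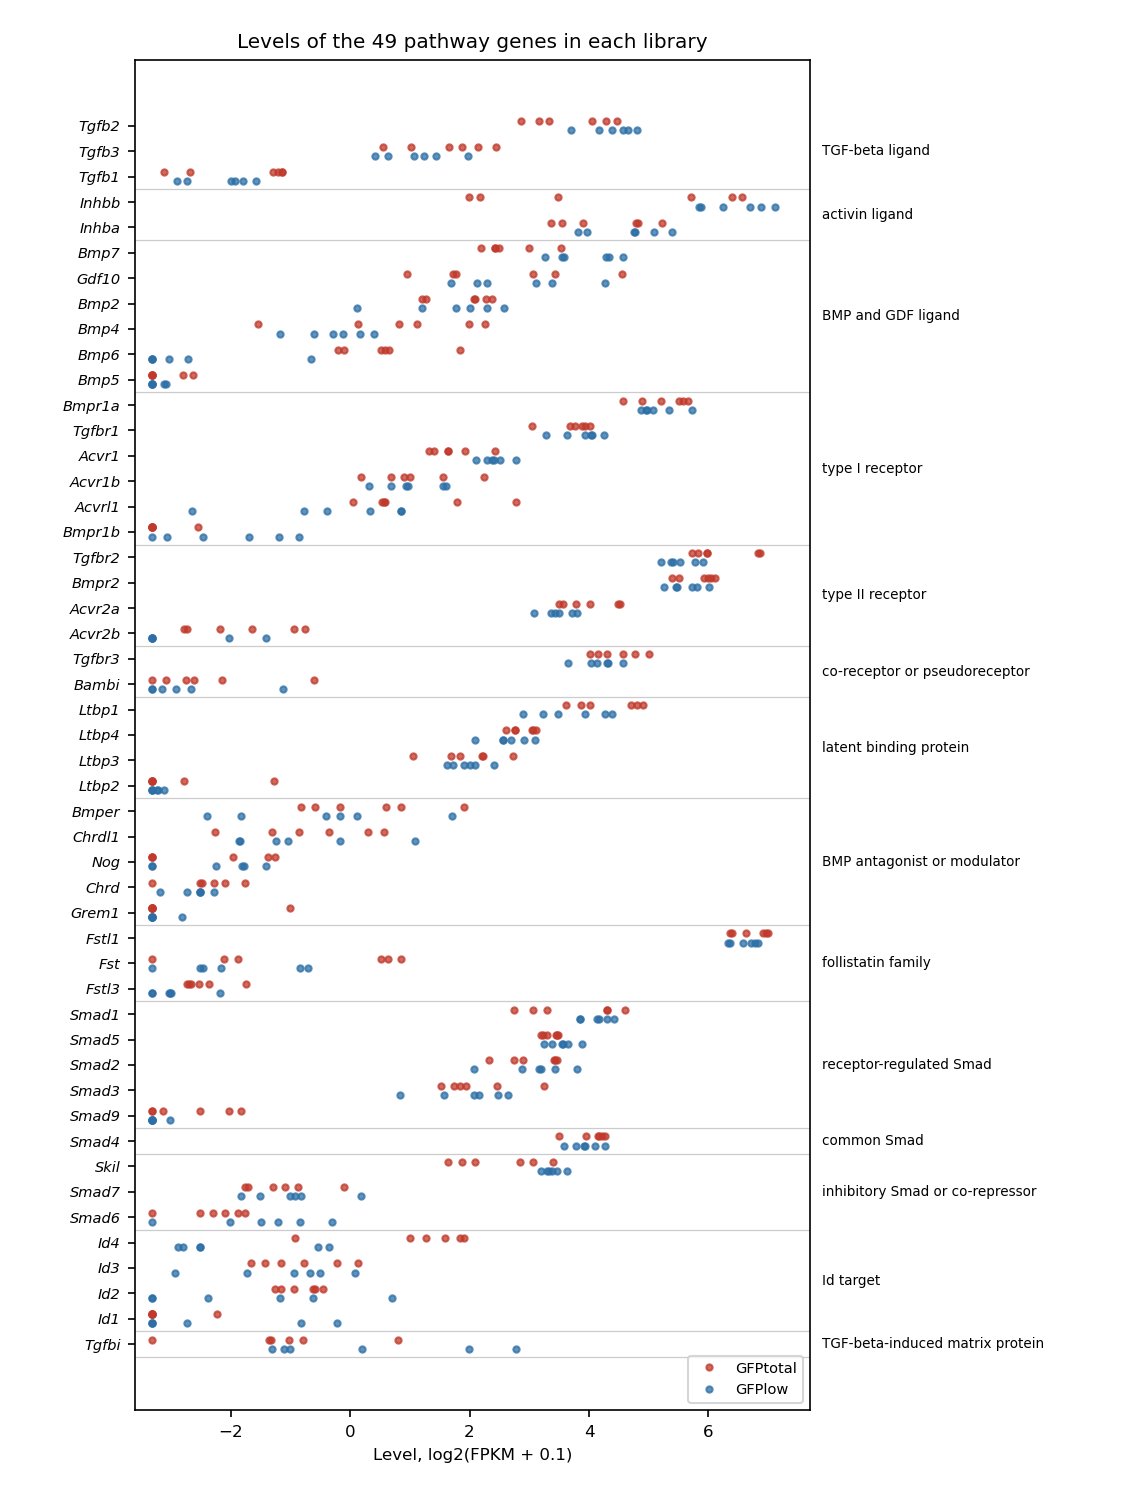
Level per exon length, log2(FPKM + 0.1) on the x axis, of all 49 pathway genes in each library, in rows grouped by role, with GFPtotal drawn above GFPlow in each row. Fstl1, Inhbb, Tgfbr2 and Bmpr2 lie at the right, and most of the 14 genes too low to test lie near or below 0.

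The pathway genes were also ordered by their mean level per exon length. FPKM here means CPM divided by exon length in kilobases. Fstl1 was first, at 106 ± 20.5 FPKM in GFPtotal and 97.7 ± 14.4 FPKM in GFPlow (SD, n = 6). In GFPtotal it was followed by Tgfbr2 (77.4 ± 29.3 FPKM), Bmpr2 (57.6 ± 11.2), Inhbb (41.6 ± 40.9) and Bmpr1a (38.8 ± 10.7). In GFPlow the order after Fstl1 was Inhbb (92.0 ± 33.5 FPKM), Bmpr2 (49.7 ± 9.55), Tgfbr2 (46.9 ± 8.89) and Bmpr1a (36.3 ± 9.0). Among these 5 genes the SD intervals of neighbours overlapped in both orders. The called genes lay far lower, with Bmp7 at 6.65 ± 2.63 FPKM in GFPtotal and 16.0 ± 5.71 FPKM in GFPlow. Id4 was at 2.45 ± 1.19 and 0.250 ± 0.30 FPKM in the same order, and Bmp6 at 1.54 ± 0.986 and 0.102 ± 0.215 FPKM.

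The latent binding proteins tether latent TGF-beta to the matrix, and none of the 3 tested passed. Ltbp1 stood at 127, 221 and 314 CPM in GFPtotal (lowest, median, highest) and at 77.0, 137 and 218 CPM in GFPlow (0.61, SE 0.28, edgeR adjusted p = 0.243). GFPtotal 1, 2 and 6, at 273, 314 and 293 CPM, were above every GFPlow library, while GFPtotal 3, 4 and 5, at 151, 127 and 169 CPM, lay within their range. Its value was 1.00 (adjusted p = 0.0572) without GFPtotal 3, 4 and 5. Ltbp3 (0.06) and Ltbp4 (0.22) had adjusted p of 0.931 and 0.566, and 53.3% of the exonic bases of Ltbp4 are shared with a second gene model on its strand that had 0 counts. Reads on the shared bases cannot be assigned, so those 0 counts do not show that the overlap left the level of Ltbp4 unchanged. Ltbp2 had 42 counts in GFPtotal, 36 of them in GFPtotal 3, and 4 in GFPlow.

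BMP antagonists were scarce. Nog, Chrd and Grem1, which encode noggin, chordin and gremlin, had 38, 83 and 26 counts over the 12 libraries and were not tested. Of the 26 counts of Grem1, 23 came from GFPtotal 3. Bmper, which encodes a BMP-binding modulator known from endothelium, ranged from 1.78 to 13.8 CPM in GFPtotal, against 0.339 to 11.9 CPM in GFPlow (0.55, SE 0.71, edgeR adjusted p = 0.732). The high GFPlow value was GFPlow 6, without which the difference was 1.41 (adjusted p = 0.292), and the sign turned to -0.15 without GFPtotal 3, 4 and 5. Chrdl1, a chordin-like BMP antagonist, gave 0.07 (adjusted p = 0.970), with GFPlow 5 highest at 13.7 CPM.

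In the follistatin family only Fstl1, a secreted glycoprotein that shares a follistatin domain, was abundant, at 522 ± 101 CPM in GFPtotal, against 480 ± 70.7 CPM in GFPlow (0.12, SE 0.15, edgeR adjusted p = 0.724). Fst, which encodes the activin trap follistatin, had 167 counts in GFPtotal and 49 in GFPlow and was not tested. GFPtotal 3, 4 and 5 held 56, 51 and 51 of those 167 counts. Fstl3 had 17 counts in GFPtotal and 8 in GFPlow, and 47.3% of its exonic bases are antisense to Prss57.

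Smad1 to Smad5 were measured at moderate levels, while Smad6, Smad7 and Smad9 were low. None of the 6 tested genes among Smad1 to Smad5 and Smad7 passed. Smad1 averaged 85.4 ± 42.8 CPM in GFPtotal, against 102 ± 16.2 CPM in GFPlow (-0.25, SE 0.28, edgeR adjusted p = 0.681). GFPtotal 3, 4 and 5, at 48.1, 38.6 and 56.4 CPM, were the 3 lowest libraries of all 12, and without them the sign turned to 0.25. Smad5 (-0.21), Smad2 (-0.08) and Smad3 (0.19) had adjusted p of 0.471, 0.914 and 0.815. Smad4, the partner shared by both branches, had 61.8 ± 11.1 CPM in GFPtotal, against 56.9 ± 9.40 CPM in GFPlow (0.12, SE 0.17, adjusted p = 0.766). Smad9 had 34 counts in GFPtotal and 2 in GFPlow.

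Of Skil, Smad6 and Smad7, the negative regulators inside the cell among the 49 genes, Skil, which encodes the Smad co-repressor SnoN, had the highest level per exon length. It stood at 29.3, 54.3 and 102 CPM in GFPtotal (lowest, median, highest) and at 88.4, 97.9 and 119.7 CPM in GFPlow. Of the GFPtotal libraries, only GFPtotal 6 reached the GFPlow range, and GFPtotal 3, 4 and 5 were lowest. The log2 fold change was -0.77 (SE 0.26, edgeR adjusted p = 0.103), or -0.29 (adjusted p = 0.564) without those 3 libraries. Skil passed with total library size as scaling (adjusted p = 0.0195), in limma-voom (adjusted p = 0.0278) and without GFPtotal 6 (adjusted p = 0.0244). Smad7, an inhibitory Smad, gave -0.23 (adjusted p = 0.871) at 0.891 to 3.74 CPM in GFPtotal, against 0.817 to 4.69 CPM in GFPlow. Smad6 had 30 counts in GFPtotal and 106 in GFPlow.

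Id genes encode helix-loop-helix proteins without a DNA-binding region and are direct targets of BMP Smads in many cells. Id4 was the 1 Id gene that was higher in GFPtotal. Id4 (ENSMUSG00000021379) lies on chromosome 13 at 48261427 to 48264036 on the plus strand, and stood at 0.713, 4.35 and 6.08 CPM in GFPtotal (lowest, median, highest), against 0.0590, 0.126 and 1.13 CPM in GFPlow. In GFPtotal 6 it was lower than in GFPlow 2 and 6, and the other 5 GFPtotal libraries, from 3.17 CPM upwards, lay above every GFPlow library. Means were 4.07 ± 1.98 CPM in GFPtotal, against 0.415 ± 0.498 CPM in GFPlow (SD, n = 6), a log2 fold change of 3.25 (SE 0.79, edgeR adjusted p = 0.0229).

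Id4 was counted in 342 fragments in GFPtotal and 44 in GFPlow, of which GFPlow 2 and 6 gave 20 and 18. The call held in 17 of 21 alternative analyses and was lost without GFPtotal 3 (adjusted p = 0.0625), without GFPlow 3 (adjusted p = 0.0549), with a replicate block (adjusted p = 0.0509) and without GFPtotal 3, 4 and 5 (2.88, adjusted p = 0.220). An antisense gene with 0 counts shares 10.3% of its exonic bases, where reads cannot be assigned. The other Id genes were low: Id3 gave 0.17 (edgeR adjusted p = 0.929) at 0.387 to 1.78 CPM in GFPtotal, against 0.0565 to 1.71 CPM in GFPlow, and Id1 and Id2 had 27 and 102 counts over all libraries. Tgfbi, which encodes a TGF-beta-induced matrix protein, ranged from 0 to 4.39 CPM in GFPtotal, against 0.817 to 18.0 CPM in GFPlow (-2.02, SE 0.93, adjusted p = 0.239). GFPlow 1 and 5, at 18.0 and 10.3 CPM, held most of its GFPlow counts.

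The 14 genes with too few counts to test were Bmp5, Bmpr1b, Acvr2b, Bambi, Ltbp2, Nog, Grem1, Chrd, Fst, Fstl3, Smad6, Smad9, Id1 and Id2. They had between 8 and 216 counts over the 12 libraries, and their highest level in any library was 4.00 CPM, of Fst in GFPtotal. In a fit without the low-count filter, 0 of the 14 passed (edgeR, where 865 of 28485 genes did). The share of all genes at an unadjusted p below 0.05 was not taken in that fit, where 3 of the 14 reached it. These were Bmpr1b (-3.77, adjusted p = 0.140), Smad9 (3.71, adjusted p = 0.18) and Ltbp2 (3.34, adjusted p = 0.235).

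Beyond the 49 genes, 71 other genes of the same pathways were looked up, from further ligands and antagonists to activators of latent TGF-beta, Smad regulators and known responsive genes. Of the 44 with enough counts, 3 were higher in GFPtotal and 0 lower in edgeR (8 and 3 at an unadjusted p below 0.05), with 5 and 1 in DESeq2 and 2 and 0 in limma-voom, and their median log2 fold change was 0.02. The background for the 3 higher genes is the 4.55% given above, and for the unadjusted p it is 19.9% in either direction. Of all 14523 genes, DESeq2 called 1034 higher and 350 lower, and limma-voom called 675 higher and 230 lower.

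Crim1, a transmembrane protein that binds BMPs, ranged from 14.2 to 33.2 CPM in GFPtotal, against 5.63 to 11.7 CPM in GFPlow, without overlap (1.37, SE 0.27, edgeR adjusted p = 0.00622). Without GFPtotal 3, 4 and 5 it was 0.99 (adjusted p = 0.173). Ccn2, a matricellular growth factor also called CTGF, had 41.5, 32.7 and 30.3 CPM in GFPtotal 3, 4 and 5, from 3.30 to 4.41 CPM in GFPtotal 1, 2 and 6, and at most 2.20 CPM in GFPlow. Its value was 4.69 (SE 0.94, adjusted p = 0.0103) with all libraries and 2.37 (adjusted p = 0.280) without GFPtotal 3, 4 and 5, and 23.2% of its exonic bases are antisense to Gm15270.

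Thbs1, which encodes thrombospondin 1, an activator of latent TGF-beta, ranged from 126 to 469 CPM in GFPtotal, against 40.4 to 189 CPM in GFPlow. GFPlow 1 stood at 189 CPM and the other 5 GFPlow libraries at 49.7 CPM or less. The value was 2.03 (SE 0.49, edgeR adjusted p = 0.0308) and held in 9 of 21 alternative analyses, with adjusted p from 6.47e-05 to 0.366. It was 2.64 (adjusted p = 0.00055) without GFPlow 1, 1.95 (adjusted p = 0.0717) without GFPlow 6 and 1.11 (adjusted p = 0.366) without GFPtotal 3, 4 and 5. The call was also lost without any 1 of GFPtotal 3, 4 or 5 or GFPlow 2, 3, 4 or 5 (adjusted p between 0.0603 and 0.0808).

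In the roles without a called gene, the most abundant was described. Bmp3, a BMP family member that opposes BMP signalling, averaged 130 ± 30.3 CPM in GFPtotal, against 116 ± 22.3 CPM in GFPlow (0.16, edgeR adjusted p = 0.683). Neo1, which encodes neogenin, a receptor of repulsive guidance molecules, had 140 ± 19.9 CPM in GFPtotal, against 164 ± 23.2 CPM in GFPlow (-0.23, adjusted p = 0.40). Nedd4l, a ubiquitin ligase that acts on activated Smad2 and Smad3, had 168 ± 33.9 CPM in GFPtotal, against 230 ± 35.1 CPM in GFPlow (-0.46, adjusted p = 0.105).

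**Figure D5:**
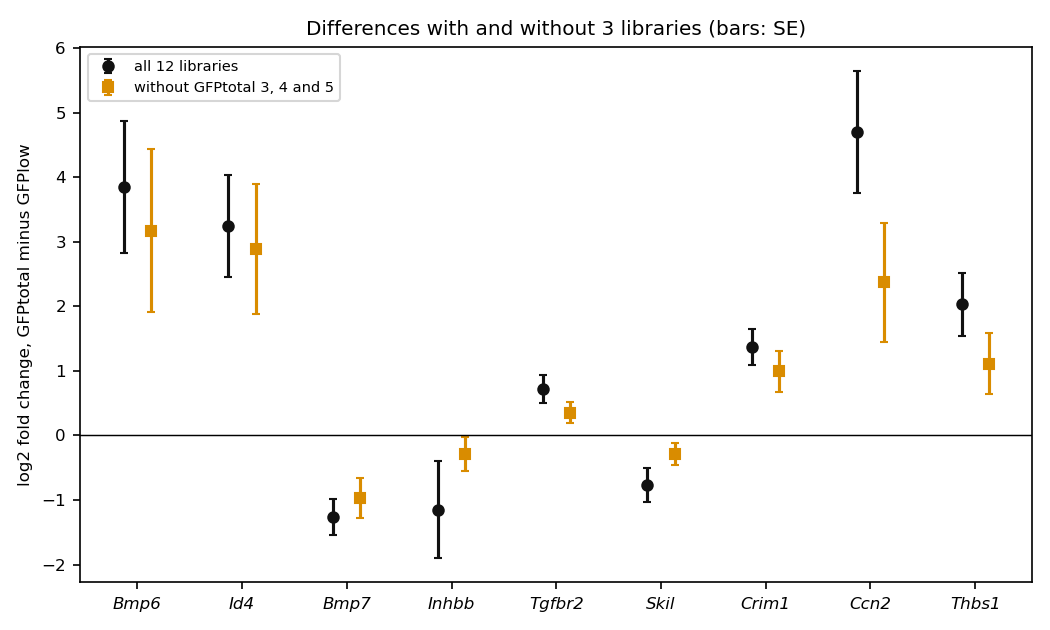
Log2 fold change (y axis, GFPtotal minus GFPlow, bars SE) of 9 pathway genes with all 12 libraries (circles) and without GFPtotal 3, 4 and 5 (squares). Bmp6 is at 3.84 with all libraries and 3.17 without the 3, while Inhbb is at -1.15 and -0.29 and Ccn2 at 4.69 and 2.37 in the same order.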

How the data were processed

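The deposited tables hold unnormalised counts for each gene. According to their headers (per the file headers), the authors ran featureCounts 1.6.4 on read pairs over exons of Ensembl release 84 (GRCm38), with a mapping quality of at least 10, without strand and with lanes merged. Cutadapt and SAMtools were also used, per the submitters' processing notes, and no source used here names the aligner. Per the labels, the kit was a gel-free TruSeq DNA Nano, sequenced on 4 HiSeq lanes. The series table equalled the single files in 12 of 12 libraries. Symbols came from GENCODE M21 by identifier (47224 of 47729 genes).

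Genes that passed edgeR's filterByExpr (minimum count 10) were scaled by TMM (trimmed mean) factors and tested by edgeR's robust quasi-likelihood F test (edgeR 4.0.16, R 4.3.3), GFPtotal minus GFPlow, with two-sided p adjusted by Benjamini-Hochberg over 14523 genes and a threshold of 0.05. The SE is the log2 fold change over the root of F. CPM were taken on TMM-scaled library sizes and divided by exon length for FPKM, so their precision follows the counts given. Intervals a count of 0 allows (3 counts) cover counting error only. The fits were tested on simulated data. For 15 of the 49 genes some exonic bases belong to another gene as well, and reads there cannot be assigned.

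Alternatives (21 in all) were other scalings, no filter, mitochondrial genes left out, DESeq2 1.42.0, limma-voom (limma 3.58.1), a replicate block, each library left out in turn and, added after the data were seen, leaving out GFPtotal 3, 4 and 5 together and a correction for transcript GC content. The genes and lists were chosen with earlier results of these data known. Named genes are those called or without overlap and, per role without one, the most abundant per length and the largest change, for the other pathway genes those called or the most abundant per role. Further members are given for completeness, chosen after their values were seen. A further gene of the pathway list is not reported here.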

Additional observations from a re-analysis of the deposited data

Results flagged for a closer look

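Among 82 sets of 6 libraries (each tested or named gene in each group), 8 had a library far from the rest, and chance flags about 1 in 20. Bmp6 was 8.35 CPM in GFPtotal 4, next to 3.53 CPM in the second-highest GFPtotal library, and 1.30 CPM in GFPlow 2, next to 0.126 CPM. Chrdl1 was 13.7 CPM in GFPlow 5, next to 5.31 CPM. Bmper was 11.9 CPM in GFPlow 6, the library with the differing file header, next to 3.71 CPM. Smad7 was 4.69 CPM in GFPlow 2, next to 2.11 CPM. Tgfbi was 4.39 CPM in GFPtotal 5, next to 1.29 CPM. Thbs1 was 189 CPM in GFPlow 1, next to 49.7 CPM, and Bmp3 was 158 CPM in that library, next to 116 CPM.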

How the results depend on the processing

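Without GFPtotal 3, 4 and 5, 0 pathway genes were called (0 higher, 0 lower), 1 other pathway gene (Fstl4), 295 of all genes, and Bmp6, Ltbp1 and Fstl1 were 3 genes without overlap. The share of all genes without overlap was taken for the main fit alone. Groups with fewer libraries separate more easily, so the counts without overlap in the alternatives have no background here. When libraries were scaled by their totals alone, 2 of the pathway genes called were lower (Bmp7 and Skil), 2 did not overlap, and over all genes 505 were higher and 257 lower, against 661 and 124. limma-voom also called 2 lower, and 230 of all genes lower. DESeq2 called 6 other pathway genes and 1384 genes in all, against 785. Over fits that left out 1 library, 1 to 5 pathway genes were called, 0 to 4 higher and 1 to 3 lower, 1 to 4 did not overlap, and 2 to 5 other pathway genes and 467 to 970 of all genes were called. Without GFPtotal 3 or GFPlow 3, only Bmp7 of the 49 was called. Whether equal replicate numbers pair libraries could not be told, since no label ties a library to a mouse. Deviations from the group means correlated between -0.139 and 0.0892 for equal numbers, and 2 of 6 correlated best with their own number. With a replicate block, 2 pathway genes (1 higher, Bmp6) and 582 of all genes were called. The sign turned under some alternative for 14 of the 35 tested pathway genes, 0 of them called. Among the named genes these were Bmpr1a (-0.012 with total library size, -0.024 with GC correction) and, without GFPtotal 3, 4 and 5, Bmper (-0.15) and Smad1 (0.25). Without those 3 libraries it turned for 10 of the 35, also Gdf10 (-1.61), Inhba (0.20), Tgfbr1 (0.02), Acvr1b (-0.51), Ltbp3 (-0.29), Smad2 (0.23), Smad3 (-0.40) and Id3 (-0.73). Over the named genes, 441 of the alternative values kept their direction and their side of the threshold, 29 lost and 9 gained a call. The trend of a library over GC content ranged from a Spearman rho of -0.213 to 0.254, and the correction kept Bmp6, Bmp7 and Id4. The causes were not tested. Depth limits the 14 untested genes and Bmp6 and Id4, which rest on 347 and 386 counts. It also limits tested genes that were not called on few counts, such as Id3 (160), Tgfb1 (168) and Smad7 (351).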

Other observations

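Some pathway genes that were not called in the main test had their GFPtotal values split between GFPtotal 3, 4 and 5 and the other 3 libraries. Pmepa1, which encodes a membrane protein that restrains TGF-beta signalling, stood at 12.7, 11.6 and 18.0 CPM in GFPtotal 3, 4 and 5 and at 213, 197 and 161 CPM in GFPtotal 1, 2 and 6, against 83.3 to 157 CPM in GFPlow. Itgb8, an integrin subunit that activates latent TGF-beta, stood at 384, 304 and 324 CPM in GFPtotal 3, 4 and 5 and at 65.6, 85.3 and 68.1 CPM in GFPtotal 1, 2 and 6, against 48.1 to 119.7 CPM in GFPlow. Fstl4, a follistatin-like gene too low for the main test, split in the direction of Pmepa1 and opposite to Itgb8. It had 8.43, 7.37 and 7.13 CPM in GFPtotal 1, 2 and 6, from 0.200 to 2.57 CPM in GFPtotal 3, 4 and 5, and at most 0.755 CPM in GFPlow. Fstl4 was called in some alternative analyses, such as that without the low-count filter. These genes were chosen after their values were seen, and the split between GFPtotal libraries was not tested.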
